A study of Mus musculus with 9 samples.

Results

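Loss of LSD1 was examined in mouse livers that express a YAP transgene. The comparison sets 3 libraries labelled YAP_Lsd1ko against 3 labelled YAP, chosen by their titles, so 6 of the 9 RNA-seq libraries of the study, and 3 wild type (WT) libraries give the background. All livers came from the strain C57BL/6. YAP livers are labelled YAP transgenic and YAP_Lsd1ko livers YAP; Lsd1 KO. Every mouse, WT included, received AAV8-ApoE/ATT1-Cre by intraperitoneal injection, an adeno-associated virus whose name gives a liver promoter in front of the Cre recombinase. Doxycycline at 30 mg/L in the drinking water for 14 days switched on YAP. The promoter of the transgene, the deleted exons, the ages and the number of animals are not given in the sources used here, and no group in these files lacks Lsd1 without carrying the YAP transgene. Nothing in the labels says that libraries came from separate animals, so p-values measure the spread between these libraries.

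YAP, encoded by Yap1, is a transcriptional co-activator held in check by the Hippo kinases. In the nucleus it binds TEAD factors and switches on genes of growth, and in liver an excess of it enlarges the organ and gives hepatocytes features of bile duct cells and progenitors. LSD1, encoded by Kdm1a, removes methyl groups from lysine 4 of histone H3, a mark of active promoters and enhancers, and works in repressor complexes with CoREST and histone deacetylases. The study's title places LSD1 at the end of an axis that runs from YAP through polyamines and the hypusination of the translation factor eIF5A, and the comparison asks which transcripts of the YAP liver depend on LSD1.

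The values are counts of sequencing reads that cross splice junctions. For each gene, uniquely mapped reads were summed over annotated junctions that belong to that gene alone, and levels are given as CPM, reads per 1000000 gene junction reads after TMM scaling. Libraries held 6910297 to 9925154 uniquely mapped junction reads. A read that crosses several junctions counts at each, so CPM of one gene cannot be set against CPM of another, and genes without an intron were not measured. Of 15493 genes with reads, 10897 were tested with edgeR's quasi-likelihood test.

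Kdm1a was read first, since it checks the labels. It stood at 36.7, 42.7 and 46.2 CPM in YAP replicates 1 to 3 and at 15.8, 35.4 and 25.3 CPM in YAP_Lsd1ko replicates 1 to 3. WT libraries lay at 30.1, 38.3 and 31.3 CPM. All 3 YAP_Lsd1ko libraries were below the lowest YAP library, but replicate 2 lay only just below it and inside the WT range, so it is called the library labelled YAP_Lsd1ko replicate 2 throughout. The log2 fold change of Kdm1a was -0.72 ± 0.25 (SE), which did not pass edgeR's test over all genes (adjusted p = 0.186). Without the library labelled YAP_Lsd1ko replicate 2 it was -1.03 (edgeR adjusted p = 0.0573).

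Single Kdm1a junctions were read next. Of its 18 annotated junctions with reads, 16 could be tested, and the log2 fold change was below 0 at all 16. None passed (smallest edgeR adjusted p = 0.0685), and 5 had an unadjusted p under 0.05. YAP_Lsd1ko replicate 1 was the lowest of the 6 libraries at 13 of the 16. The junction with the smallest p joins exons 15 and 16 of the 20-exon transcript (chr4:136554401-136555172, minus strand, GRCm38) and is shown with the last bases of the upstream exon in lower case and the first bases of the downstream exon in capitals, from the GENCODE M21 transcript:
Kdm1a exon 15 to 16: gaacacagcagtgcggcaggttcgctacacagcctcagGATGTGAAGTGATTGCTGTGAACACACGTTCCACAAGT
At this junction YAP libraries had 2.95, 2.91 and 4.50 CPM and YAP_Lsd1ko libraries 1.54, 1.65 and 1.51 CPM. Here the library labelled YAP_Lsd1ko replicate 2 was as low as its fellows, unlike in the sum over the gene. The junction was picked by its p-value, which favours sites where the libraries of a group are alike. This likeness is therefore no separate evidence about that library.

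One unannotated Kdm1a junction joined annotated exon ends. It runs from exon 5 to exon 8 (chr4:136570540-136574024), skips exons 6 and 7, and had 1 read in YAP_Lsd1ko replicate 3 and 0 in each of the other libraries. The 3 annotated junctions that lie inside it summed to 57, 61 and 51 reads in YAP and to 15, 34 and 37 reads in YAP_Lsd1ko. At the junction between exons 6 and 7 (chr4:136572325-136573072) the library labelled YAP_Lsd1ko replicate 2 had 1 read, against 6 in replicate 1, 17 in replicate 3 and 18 to 23 in YAP. Thus that library, near the YAP level over the whole gene, was the lowest of all at this junction, a site singled out after its values were seen. Reads still crossed all 3 junctions in every YAP_Lsd1ko library.

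**Figure D1:**
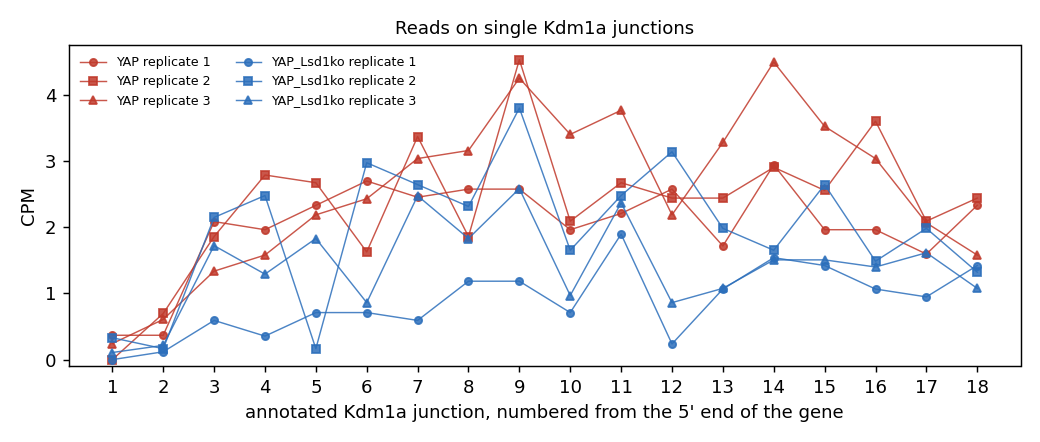
CPM on each of the 18 annotated Kdm1a junctions, numbered from the 5′ end of the gene on the x axis, for 3 YAP libraries (red) and 3 YAP_Lsd1ko libraries (blue), 1 line per library. YAP_Lsd1ko replicate 1 runs lowest along most of the gene, and the library labelled YAP_Lsd1ko replicate 2 runs among the YAP libraries apart from single junctions such as the fifth.

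Yap1 junction reads fell in YAP_Lsd1ko. Yap1 stood at 78.6, 66.8 and 78.8 CPM in YAP, at 47.7, 35.2 and 30.4 CPM in YAP_Lsd1ko, and at a mean of 18.9 ± 1.29 CPM (SD, n = 3) in WT. The groups did not overlap, and the log2 fold change was -0.98 ± 0.17 (SE; edgeR adjusted p = 0.0213, or 0.0495 without the library labelled YAP_Lsd1ko replicate 2). The call was lost, at about the same fold change, without WT replicate 3 (0.0580), YAP replicate 1 (0.0992), YAP replicate 3 (0.117) or YAP_Lsd1ko replicate 3 (0.0884).

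Most of the excess of YAP over WT lay on 3 of the 9 Yap1 junctions, and most of the fall lay there too. These 3, the ones with the largest excess of the YAP mean over the WT mean, join exons 1 to 2 (chr9:8001708-8004114), 2 to 3 (chr9:7973912-8001456) and 4 to 5 (chr9:7953135-7962288), all on the minus strand of GRCm38. They are shown because the YAP libraries exceed WT most at them, again with the downstream exon in capitals and from GENCODE M21:
Yap1 exon 1 to 2: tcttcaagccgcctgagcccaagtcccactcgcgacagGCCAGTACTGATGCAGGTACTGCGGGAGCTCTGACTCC
Yap1 exon 2 to 3: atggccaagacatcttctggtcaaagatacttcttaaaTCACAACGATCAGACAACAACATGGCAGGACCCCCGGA
Yap1 exon 4 to 5: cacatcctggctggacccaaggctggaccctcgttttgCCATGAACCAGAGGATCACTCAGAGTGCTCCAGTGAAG
Their sum was 66.8, 55.2 and 66.3 CPM in YAP, 32.5, 20.8 and 22.8 CPM in YAP_Lsd1ko, and 6.50, 5.09 and 5.81 CPM in WT. The YAP_Lsd1ko mean was 40.4% of the YAP mean, with no overlap (exact permutation test, two-sided p = 0.1, the smallest that 3 against 3 allows). The other 6 Yap1 junctions summed to 11.8, 11.5 and 12.5 CPM in YAP and to 15.2, 14.4 and 7.54 CPM in YAP_Lsd1ko, 104% of the YAP mean, and these groups overlapped (exact permutation test, two-sided p = 1.0). That sum hides a difference among the 6. The junction chr9:7950540-7952952 read 3.81, 2.91 and 4.01 CPM in YAP and 2.73, 1.32 and 2.15 CPM in YAP_Lsd1ko. Its log2 fold change was -0.75 (edgeR adjusted p = 0.305), and those of the others ran from -0.0011 to 0.51. The YAP libraries helped to pick the 3 junctions, so the WT contrast is a description, and the p-value for YAP_Lsd1ko against YAP shares those libraries. In the test of single junctions, 1064 of 75332 passed (1.41%), 875 higher (1.16%) and 189 lower (0.251%), among them 2 of the 9 of Yap1: exon 1 to 2 (log2 fold change -1.48) and exon 2 to 3 (-1.33).
Yap1 junction reads were thus lower in all YAP_Lsd1ko libraries than in all YAP libraries, and their part in the results that follow was not tested.

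**Figure D2:**
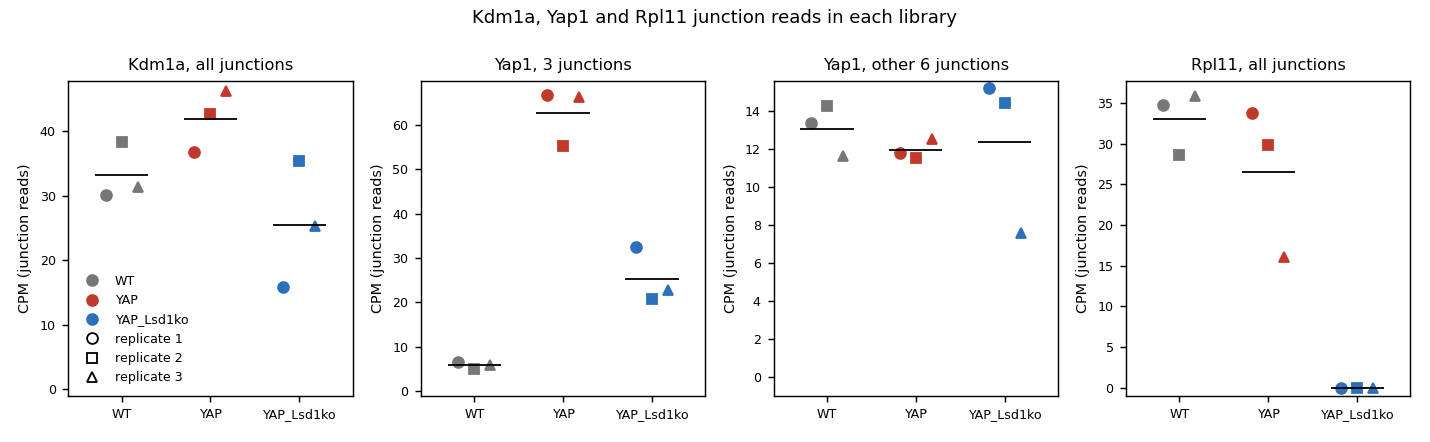
CPM of Kdm1a, of 3 Yap1 junctions, of the other 6 Yap1 junctions and of Rpl11 in each of the 9 libraries, by group on the x axis, with the symbol giving the replicate number and a bar the group mean. Summed, the 3 Yap1 junctions are lower in all YAP_Lsd1ko than in all YAP libraries, and the other 6 overlap. Rpl11 is at 0 in all YAP_Lsd1ko libraries.

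Libraries differed within the YAP_Lsd1ko group more than within YAP. On the first principal component (57.1% of the variance) YAP libraries lay at 45.9, 47.4 and 46.6, YAP_Lsd1ko libraries at 31.9, -48.7 and 1.41, and WT libraries at -74.3, -14.3 and -35.9. YAP_Lsd1ko replicate 1, with the least Kdm1a, lay nearest to YAP, and the library labelled YAP_Lsd1ko replicate 2, with the most, lay furthest from it. In every group, replicate 3 lay between the others: of 1600 genes whose YAP_Lsd1ko libraries differed over 2-fold, it held the middle value in 95%. The share was 89.9% of 407 such genes in YAP and 95.4% of 976 in WT. On the log2 scale the correlation across genes of replicate 3 with the mean of replicates 1 and 2 was 0.989 in YAP_Lsd1ko, against 0.904 between replicates 1 and 2. Rpl11, described further on, was different, with fewer reads in YAP replicate 3 than in either other YAP library. Replicate 3 was also fitted as a weighted mean of replicates 1 and 2, over genes with at least 100 reads. The weight of replicate 1 was 47.0% in WT, 47.2% in YAP and 46.9% in YAP_Lsd1ko. Whether each replicate 3 is an independent sample was not tested. The SE and p-values of single genes count it as one, and the number of passing genes is given with and without it.

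**Figure D3:**
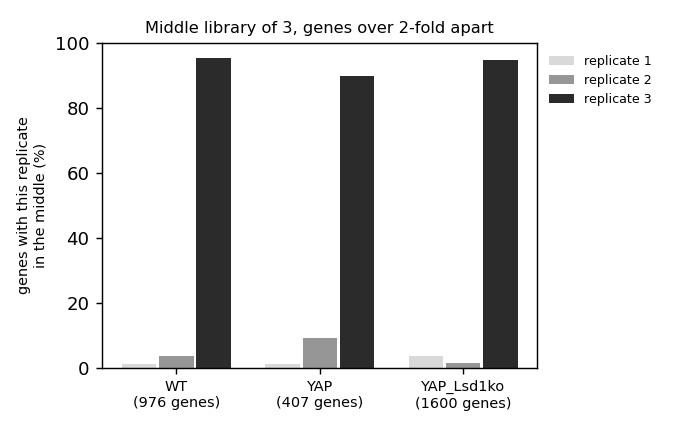
Share of genes (y axis, percent) in which replicate 1, 2 or 3 held the middle of the 3 CPM values of its group, over genes with at least 100 reads whose libraries differed over 2-fold. Replicate 3 holds the middle in 95.4% of such genes in WT, 89.9% in YAP and 95% in YAP_Lsd1ko.

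More genes rose than fell in YAP_Lsd1ko against YAP. Some male-biased liver genes such as Cyp4a12a, pericentral genes such as Notum, bile acid genes such as Nr0b2 and lipid synthesis genes such as Acacb were among those that rose. Fmo2 and Cux2, known as female-biased, were among those that fell. Of 10897 genes, 231 passed edgeR's test at an adjusted p under 0.05 (2.12%), of which 191 were higher (1.75%) and 40 lower (0.367%). The change was at least 2-fold in 126 of the higher and 24 of the lower genes, and at least 4-fold in 54 and 9. For scale, the 3 libraries of one group lay wholly above those of the other in 12.5% of all genes for YAP_Lsd1ko and wholly below in 11.5%, and 2029 genes had an unadjusted p under 0.05.

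These counts depended on single libraries. Without the library labelled YAP_Lsd1ko replicate 2, 162 of 11127 genes passed in edgeR (1.46%), 137 higher (1.23%) and 25 lower (0.225%), 131 of them among the 231. Without YAP_Lsd1ko replicate 1, 844 passed (653 higher, 191 lower), including 230 of the 231. The count was 30 without YAP_Lsd1ko replicate 3, 41, 116 and 5 without YAP replicates 1 to 3, and 62 without WT replicate 3. With every replicate 3 left out, an alternative chosen after seeing the data, edgeR called 0 genes (499 at an unadjusted p under 0.05) and DESeq2 85. Under that edgeR fit 187 of the 191 higher and 40 of the 40 lower genes had an unadjusted p under 0.05. These genes were chosen in a fit that held the same replicates 1 and 2, so this is no separate support for them. No gene named here passed edgeR's adjusted threshold on replicates 1 and 2 alone.

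The library labelled YAP_Lsd1ko replicate 2 was the furthest of the 3 from the YAP mean in 126 of the 191 higher genes and 27 of the 40 lower ones. YAP_Lsd1ko replicate 1 was the nearest in 124 and 30. The median shift of the 191 genes from the YAP mean was 1.05, 1.43 and 1.32 on the log2 scale in YAP_Lsd1ko replicates 1 to 3, and that of the 40 was -1.05, -1.42 and -1.40. In the same genes WT replicates 1 to 3 stood at 1.54, 1.34 and 1.47 for the 191 and at -1.78, -1.32 and -1.50 for the 40. The YAP libraries are shared by both sets of values and took part in choosing the genes, so the WT levels are given side by side only.

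Male-biased liver genes made up the list with the most passing members. Growth hormone, released in pulses in male mice and more steadily in females, sets the level of these genes through the transcription factor STAT5. Of 28 tested genes known as male-biased in mouse liver, 11 rose and 0 fell, beside 1.75% and 0.367% of all genes. Their median log2 fold change was 3.05, beside -0.01 over all genes. The YAP_Lsd1ko libraries lay wholly above YAP in 24 of the 28, beside 12.5% of all genes. Without the library labelled YAP_Lsd1ko replicate 2, 6 rose and the median was 2.55. Summed over the list, levels were 18057, 31989 and 28104 CPM in YAP and 42513, 64464 and 58322 CPM in YAP_Lsd1ko. Genes with many reads weigh most in this sum, above all the major urinary protein genes. Their junctions held 114283, 237294 and 195680 unique reads in YAP and 295440, 301838 and 438639 in YAP_Lsd1ko.

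Cyp4a12a, a fatty acid hydroxylase of male liver, had one of the smallest p-values of all. It stood at 56.0, 92.1 and 77.3 CPM in YAP and at 487, 771 and 671 CPM in YAP_Lsd1ko, with WT at 497, 325 and 394. Every YAP_Lsd1ko library was far above every YAP library, and 2 of the 3 were above the WT range. The log2 fold change was 3.10 ± 0.27 (SE; edgeR adjusted p = 0.00463).

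Its near-identical neighbour Cyp4a12b read 5.16, 11.7 and 9.36 CPM in YAP and 64.5, 201 and 127 CPM in YAP_Lsd1ko. Reads from such copies can be split between them, so the separate values of the Cyp4a12 pair are uncertain, though both groups of libraries stood apart at each. The same holds for Ces3a and Ces3b, for Serpina1e, for the Cyp3a genes and for the major urinary protein (Mup) genes.

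Sult2a8, a bile acid sulfotransferase, showed a wide spread. It read 19.2, 6.63 and 13.1 CPM in YAP against 217, 1461 and 852 CPM in YAP_Lsd1ko, and 1671, 121 and 781 CPM in WT. All YAP_Lsd1ko libraries were above all YAP libraries, but they differed among themselves over a wide range, as did WT. The log2 fold change was 6.02 ± 1.10 (SE; edgeR adjusted p = 0.0321), and without the library labelled YAP_Lsd1ko replicate 2 it was 5.36 (edgeR adjusted p = 0.0668).

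Nat8f5, an N-acetyltransferase family member, was steady instead, at 0, 0.930 and 0.486 CPM in YAP and 12.7, 11.7 and 11.8 CPM in YAP_Lsd1ko (log2 fold change 4.61; edgeR adjusted p = 0.00762). Serpina1e, a protease inhibitor of the alpha-1-antitrypsin cluster, rose by 2.48 on the log2 scale (edgeR adjusted p = 0.0245), from 76.9 to 117 CPM in YAP to 434 to 642 CPM in YAP_Lsd1ko, while WT stood at 2181 to 7780 CPM. Mup11, which encodes a urinary pheromone carrier, had 1 unique read in the YAP group and 221 in YAP_Lsd1ko, a read ratio of 232 (95% interval for counting error 41.2 to 9212). It no longer passed without the library labelled YAP_Lsd1ko replicate 2 (edgeR adjusted p = 0.0867).

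The opposite list moved the other way in part. Of 19 tested genes known as female-biased, 4 fell and 0 rose, beside 0.367% and 1.75% of all genes. Their median log2 fold change was -0.46. Fmo2, Cux2 and Cyp3a44 were among the 4, and 2 of the list fell without the library labelled YAP_Lsd1ko replicate 2. The remaining members were split, with 9 of the 19 log2 fold changes above 0.

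Fmo2, a monooxygenase of foreign compounds, read 107, 48.1 and 73.9 CPM in YAP and 21.0, 30.3 and 27.0 CPM in YAP_Lsd1ko (log2 fold change -1.55; edgeR adjusted p = 0.0291). Cux2, a repressor of male-biased genes, read 15.7, 4.88 and 8.03 CPM in YAP and 2.96, 1.98 and 1.62 CPM in YAP_Lsd1ko, and its call was lost without the library labelled YAP_Lsd1ko replicate 2 (edgeR adjusted p = 0.0493, then 0.107). Cyp3a44 passed narrowly (edgeR adjusted p = 0.0495, and 0.0889 without that library), and its direction turned when multi-mapped reads were added. All livers were of one sex by their sex-linked transcripts: Xist had 0 or 1 reads in every library, and of 4 tested sex-linked genes 0 rose and 0 fell, with Eif2s3y at 81.9 to 98.1 CPM in YAP and 114 to 160 CPM in YAP_Lsd1ko (edgeR adjusted p = 0.0921) and Kdm5d at 41.4 to 43.2 and 25.1 to 49.1 CPM (0.601).

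**Figure D4:**
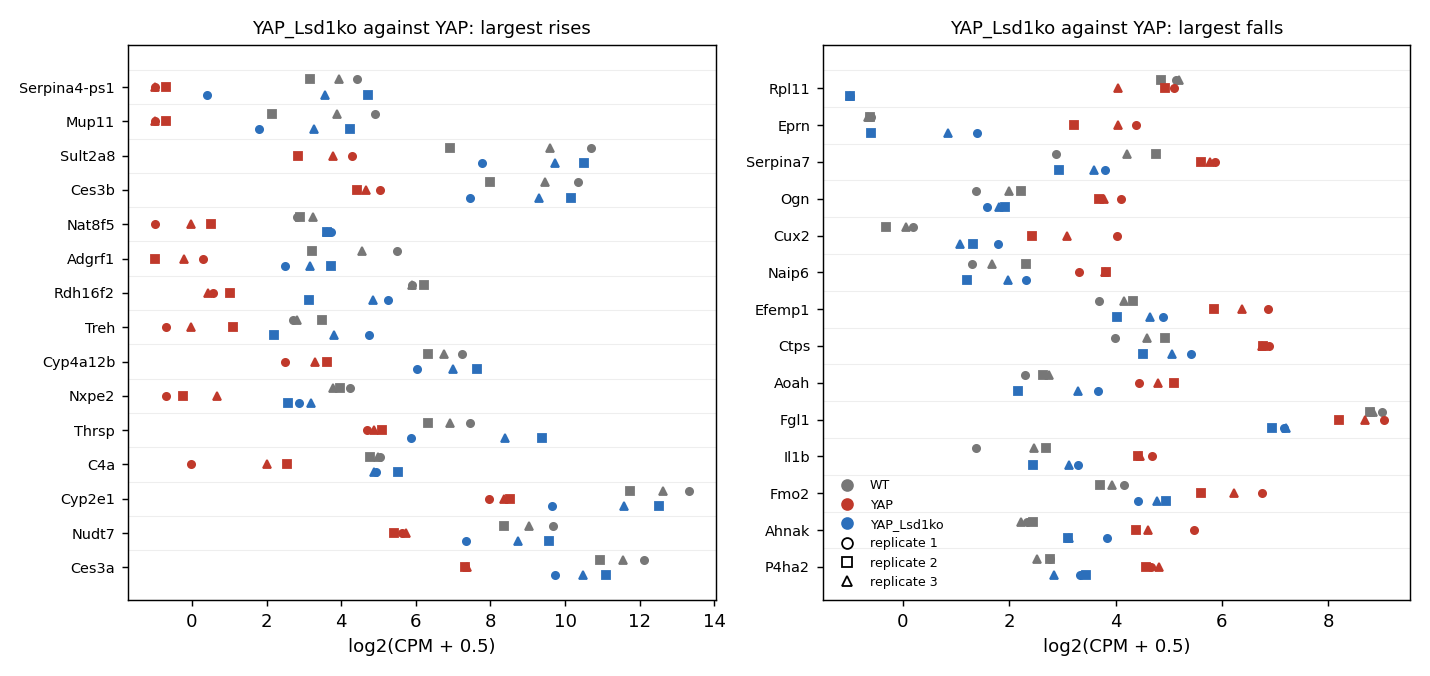
Levels as log2(CPM + 0.5) on the x axis of the 15 largest rises (left) and of 14 of the 15 largest falls (right) among passing genes, with WT in grey, YAP in red and YAP_Lsd1ko in blue, and the symbol giving the replicate number. In each gene the 3 blue points lie apart from the 3 red ones, and for Sult2a8, Ces3b and Cyp2e1 blue points are spread widely, with replicate 1 nearest to red.

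Of the genes that mark zones of the liver lobule, 6 pericentral ones and 1 periportal one rose. Hepatocytes near the central vein receive Wnt signals and carry detoxifying enzymes, while those near the portal vein make urea and glucose. Of 29 pericentral genes tested, 6 rose and 0 fell (median log2 fold change 1.62). Of 23 periportal genes, 1 rose and 0 fell (median 0.63), and the difference between the lists was not tested. Over all genes tested, 1.75% rose and 0.367% fell. Without the library labelled YAP_Lsd1ko replicate 2, 6 pericentral and 0 periportal genes rose. Of the 23 periportal log2 fold changes, 19 were above 0. YAP_Lsd1ko lay wholly above YAP in 10 of these genes and wholly below in 1, beside 12.5% and 11.5% of all genes. Summed periportal levels were 213813, 147156 and 176621 CPM in YAP and 167928, 124365 and 137451 CPM in YAP_Lsd1ko, with overlap. Summed pericentral levels were 3403, 6934 and 5339 CPM in YAP and 7036, 19112 and 13013 CPM in YAP_Lsd1ko. Genes with many reads weigh most in such sums.

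Wnt targets were among the 6. Lgr5, a receptor that strengthens Wnt signals, read 0.123, 0.349 and 0.243 CPM in YAP and 1.30, 2.15 and 2.15 CPM in YAP_Lsd1ko, with WT at 4.06 to 5.94 (log2 fold change 2.87 ± 0.45, SE; edgeR adjusted p = 0.0170). Notum, a secreted enzyme that inactivates Wnt proteins, read 0.614, 2.91 and 0.851 CPM in YAP and 11.5, 9.10 and 9.70 CPM in YAP_Lsd1ko, with WT at 25.9 to 31.2 (2.77 ± 0.43; adjusted p = 0.0169). Both were above all YAP libraries and below all WT libraries in each YAP_Lsd1ko library.

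Gulo, which makes the last step of vitamin C synthesis, read 60.8, 138 and 88.7 CPM in YAP, 276, 440 and 349 CPM in YAP_Lsd1ko and 1019 to 1090 CPM in WT (log2 fold change 1.89; edgeR adjusted p = 0.0170). Rnase4, a secreted ribonuclease, lay at 1.47 to 4.30 CPM in YAP, 13.9 to 27.6 in YAP_Lsd1ko and 88.4 to 126 in WT (2.70; adjusted p = 0.0145). For both, the 3 groups did not overlap. Cyp2e1, which oxidises ethanol and small toxicants, read 249, 370 and 328 CPM in YAP and 802, 5856 and 3072 CPM in YAP_Lsd1ko, and lost its call without the library labelled YAP_Lsd1ko replicate 2 (edgeR adjusted p = 0.0474, then 0.0892). Uroc1, the periportal gene that rose and an enzyme of histidine breakdown, lay at 163 to 263 CPM in YAP and 367 to 713 CPM in YAP_Lsd1ko (log2 fold change 1.31; edgeR adjusted p = 0.0462, and 0.0816 without the library labelled YAP_Lsd1ko replicate 2).

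Genes of bile acid synthesis, transport and control rose in 6 of 28 cases and fell in 0 (median log2 fold change 0.92). The shares over all genes were 1.75% and 0.367%. Nr0b2 encodes SHP, a nuclear receptor that represses bile acid synthesis. It read 0.368, 0.582 and 0.486 CPM in YAP, 5.22, 4.13 and 4.20 CPM in YAP_Lsd1ko and 4.23, 1.35 and 4.05 CPM in WT (3.19 ± 0.47, SE; edgeR adjusted p = 0.0150). Every YAP_Lsd1ko library was above every YAP library.

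Slc10a1, the transporter that takes bile acids up from blood, read 40.8, 29.4 and 35.9 CPM in YAP and 118, 480 and 291 CPM in YAP_Lsd1ko (log2 fold change 3.07; edgeR adjusted p = 0.0246). Slc51b, a subunit of the exporter that returns them to blood, read 1.23, 2.21 and 2.19 CPM in YAP and 8.77, 5.62 and 7.33 CPM in YAP_Lsd1ko, while WT stood at 0.811 to 1.35 (1.94; adjusted p = 0.0193). Both genes thus rose, but the library labelled YAP_Lsd1ko replicate 2 was the highest of its group at Slc10a1 and the lowest at Slc51b. Slc51b was above both YAP and WT. Slc51a, also in this list, had no counted junction read. Scp2, a peroxisomal enzyme and sterol carrier that shortens bile acid side chains, lay at 493 to 622 CPM in YAP and 1549 to 4357 CPM in YAP_Lsd1ko (2.35; adjusted p = 0.0190). Without the library labelled YAP_Lsd1ko replicate 2, 5 of the 28 rose.

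Among enzymes that handle lipids and foreign compounds, 4 of 16 carboxylesterases rose and 0 fell (median 1.84), beside 1.75% and 0.367% of all genes. Ces3a, a triglyceride hydrolase, read 160, 159 and 166 CPM in YAP and 852, 2176 and 1433 CPM in YAP_Lsd1ko, with WT at 1956 to 4465 (log2 fold change 3.20 ± 0.40, SE; edgeR adjusted p = 0.00838). Its paralog Ces3b read 32.3, 21.1 and 24.8 CPM in YAP and 174, 1133 and 634 CPM in YAP_Lsd1ko (4.63; adjusted p = 0.0251). YAP libraries were tightly grouped at both genes and the YAP_Lsd1ko libraries were not. Aadac, a deacetylase of the endoplasmic reticulum, and Ces2g rose by 0.92 and 0.43 on the log2 scale (edgeR adjusted p = 0.0210 and 0.0414, and 0.0456 and 0.0916 without the library labelled YAP_Lsd1ko replicate 2).

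Of 39 xenobiotic cytochromes P450, 4 rose and 1 fell (median 0.82), and 2 rose and 0 fell without the library labelled YAP_Lsd1ko replicate 2. With all libraries, 1.75% of all genes rose and 0.367% fell. Cyp3a59 was an exception in its WT level: it read 163, 140 and 165 CPM in YAP, 324, 278 and 350 CPM in YAP_Lsd1ko and only 21.0 to 28.3 CPM in WT (log2 fold change 1.03; edgeR adjusted p = 0.0149). Of the YAP, YAP_Lsd1ko and WT groups, YAP_Lsd1ko was therefore the highest there, and no library of one group overlapped another group. Cyp2d40 rose by 2.70 on the log2 scale (edgeR adjusted p = 0.0199). Cyp2u1, which passed at an adjusted p of 0.0418 in edgeR, did not pass without the library labelled YAP_Lsd1ko replicate 2 (0.0892). Of 20 sulfotransferases and glucuronosyltransferases 2 rose and 0 fell (median 1.12). They were Sult2a8 and Ugt2b5, a glucuronosyltransferase at 308 to 587 CPM in YAP and 814 to 1550 CPM in YAP_Lsd1ko, and neither passed without that library (edgeR adjusted p = 0.0668 and 0.103).

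Of 34 genes of fatty acid and sterol synthesis, 8 rose and 0 fell (median 0.63), and 4 rose without the library labelled YAP_Lsd1ko replicate 2. Over all genes, 1.75% rose with all libraries and 1.23% without that library. Acacb, the acetyl-CoA carboxylase of the mitochondrial surface, read 20.0, 28.5 and 20.1 CPM in YAP and 69.8, 271 and 119 CPM in YAP_Lsd1ko (log2 fold change 2.74; edgeR adjusted p = 0.0205). The sterol enzymes Msmo1 and Sc5d rose by 0.95 and 1.06 on the log2 scale (edgeR adjusted p = 0.0149 and 0.0170). Elovl5, a fatty acid elongase, read 53.5 to 56.7 CPM in YAP and 81.2 to 95.8 CPM in YAP_Lsd1ko, with WT at 173 to 220, and passed with all libraries (edgeR adjusted p = 0.0418) but not without the library labelled YAP_Lsd1ko replicate 2 (0.102). Thrsp, a nuclear protein of lipogenic tissue, read 25.2, 33.4 and 28.9 CPM in YAP and 57.9, 670 and 336 CPM in YAP_Lsd1ko, so 2 of the 3 libraries carried most of its rise (edgeR adjusted p = 0.0481, and 0.102 without the library labelled YAP_Lsd1ko replicate 2).

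Of 27 genes of fatty acid oxidation and ketone body formation, 2 rose and 0 fell (median 0.48), and 1 rose without the library labelled YAP_Lsd1ko replicate 2. Over all genes, 1.75% rose with all libraries and 1.23% without that library. Bdh1, one of the 2, which makes the ketone body hydroxybutyrate, was even across libraries, at 63.8, 67.9 and 57.6 CPM in YAP and 127, 120 and 122 CPM in YAP_Lsd1ko (log2 fold change 0.96; edgeR adjusted p = 0.00971). Of 14 fatty acid hydroxylases of the Cyp4 family 3 rose, Cyp4a12a, Cyp4a12b and Cyp4v3, and 0 fell (median 0.43). Cyp4v3 read 114, 144 and 128 CPM in YAP and 277, 471 and 396 CPM in YAP_Lsd1ko, below its WT range of 531 to 911.

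Amino acid breakdown and secreted liver proteins held fewer calls, where 1.75% of all genes rose and 0.367% fell. Of 41 genes of the urea cycle and amino acid catabolism, 2 rose and 0 fell (median 0.63): Uroc1 and Prodh2, which oxidises hydroxyproline and stood at 37.9, 37.6 and 26.6 CPM in YAP and 85.8, 104 and 85.5 CPM in YAP_Lsd1ko (log2 fold change 1.43; edgeR adjusted p = 0.00838). Of 30 secreted and core hepatocyte genes, 2 rose and 0 fell (median 0.41): Ces3a and F7, coagulation factor VII, at 24.7, 30.0 and 29.2 CPM in YAP and 58.2, 112 and 82.4 CPM in YAP_Lsd1ko (1.59; adjusted p = 0.0150). The hepatocyte list had reads in all libraries, and its sum was not higher in YAP_Lsd1ko: 260210, 183004 and 219031 CPM in YAP and 209613, 161781 and 181731 CPM in YAP_Lsd1ko, with overlap. Genes with many reads weigh most in that sum, and 25 of the 30 log2 fold changes were above 0.

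Several of the genes with the smallest p-values changed by an even amount across libraries. Spp2, a secreted phosphoprotein, read 109, 100 and 108 CPM in YAP and 264, 236 and 262 CPM in YAP_Lsd1ko (log2 fold change 1.26; edgeR adjusted p = 0.00560). Pde9a, a phosphodiesterase of cyclic GMP, read 9.94, 12.2 and 13.6 CPM in YAP and 35.2, 36.4 and 37.7 CPM in YAP_Lsd1ko (1.61; adjusted p = 0.00733). Slc2a5, the fructose transporter, read 1.35, 2.21 and 1.58 CPM in YAP and 8.77, 8.77 and 9.26 CPM in YAP_Lsd1ko (2.37; adjusted p = 0.00762). In these genes the YAP_Lsd1ko libraries were close together and far from every YAP library. Rarres1 (2.33) and Cela1, an elastase (1.84), rose with the same adjusted p of 0.00762 in edgeR.

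Other large rises were of genes at low levels in YAP. Rdh16f2, a retinol dehydrogenase family member, read 0.982, 1.51 and 0.851 CPM in YAP and 37.5, 8.27 and 28.2 CPM in YAP_Lsd1ko (log2 fold change 4.45; edgeR adjusted p = 0.00922), and its call held without the library labelled YAP_Lsd1ko replicate 2 (8.87e-05). Treh, which splits trehalose, read 0.123, 1.63 and 0.486 CPM in YAP and 26.3, 4.13 and 13.5 CPM in YAP_Lsd1ko (4.26; adjusted p = 0.0402). Here, unlike at Sult2a8, the library labelled YAP_Lsd1ko replicate 2 was the lowest of its group and replicate 1 the highest. Nxpe2 rose by 3.70 and C4a, a complement component, by 3.46 on the log2 scale (edgeR adjusted p = 0.00856 and 0.0170).
Nudt7, a peroxisomal hydrolase of coenzyme A, rose by 3.22 on the log2 scale (edgeR adjusted p = 0.0246), from 42.6 to 53.1 CPM in YAP to 161, 759 and 424 CPM in YAP_Lsd1ko. Adgrf1, an adhesion receptor, and Serpina4-ps1 passed with all libraries (edgeR adjusted p = 0.0442 and 0.0467) but not without that library (0.0959 and 0.0904). Serpina4-ps1 had 1 read in YAP and 268 in YAP_Lsd1ko, a read ratio of 282 (95% interval for counting error 50.1 to 11163).

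Ctps, Efemp1 and Ogn were among the other genes that fell. Ctps, the enzyme that makes CTP, read 117, 108 and 107 CPM in YAP, 42.4, 22.5 and 33.1 CPM in YAP_Lsd1ko and 15.4 to 30.1 CPM in WT (log2 fold change -1.76; edgeR adjusted p = 0.0164). Efemp1, an extracellular matrix glycoprotein, read 116, 57.5 and 82.6 CPM in YAP and 29.2, 15.9 and 24.7 CPM in YAP_Lsd1ko (-1.87; adjusted p = 0.0211). Ogn, a matrix proteoglycan, read 16.7, 12.3 and 13.3 CPM in YAP and 2.49, 3.31 and 3.02 CPM in YAP_Lsd1ko (-2.26; adjusted p = 0.00762). At all 3 genes the YAP_Lsd1ko libraries lay below every YAP library. P4ha2, a hydroxylase that matures collagen, fell by 1.52 on the log2 scale (edgeR adjusted p = 0.00835).

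Fgl1, a protein that hepatocytes secrete, fell below WT. It read 527, 294 and 413 CPM in YAP, 143, 123 and 147 CPM in YAP_Lsd1ko and 438 to 517 CPM in WT (log2 fold change -1.58; edgeR adjusted p = 0.0105). Every YAP_Lsd1ko library was below both other groups. Serpina7, the thyroxine carrier of plasma, read 57.6, 47.9 and 54.5 CPM in YAP and 13.5, 7.11 and 11.5 CPM in YAP_Lsd1ko, with WT spread from 6.83 to 26.7 (-2.30; adjusted p = 0.0313).
Eprn lay at 8.84 to 20.5 CPM in YAP and 0.165 to 2.13 CPM in YAP_Lsd1ko, with WT at 0.135 to 0.163 (log2 fold change -3.57; edgeR adjusted p = 0.0163). Aoah, an enzyme that detoxifies bacterial lipopolysaccharide, Naip6, an inflammasome receptor family member, and Il1b, the cytokine interleukin 1 beta, fell by 1.66, 1.87 and 1.57 on the log2 scale (edgeR adjusted p = 0.0476, 0.0377 and 0.0467). Ahnak, a large scaffold protein, fell by 1.54 (edgeR adjusted p = 0.0462). Without the library labelled YAP_Lsd1ko replicate 2, Aoah passed (0.0352), and Naip6 (0.0533), Il1b (0.0757), Ahnak (0.107) and Serpina7 (0.0723) did not.

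Markers of macrophages were lower beside these falls. All 20 tested macrophage and Kupffer cell markers had a log2 fold change below 0 (median -0.74), though 0 passed. Their summed level was 2763, 3257 and 3016 CPM in YAP, against 2765, 592 and 1866 CPM in YAP_Lsd1ko replicates 1 to 3. Lyz2, a lysozyme of myeloid cells, read 212, 264 and 242 CPM in YAP and 140, 31.3 and 98.4 CPM in YAP_Lsd1ko (log2 fold change -1.41; edgeR adjusted p = 0.188). In the summed level, replicates 2 and 3 were below all YAP libraries, replicate 2 the furthest, and replicate 1 lay inside the YAP range. At Lyz2 every YAP_Lsd1ko library was below every YAP library. Without the library labelled YAP_Lsd1ko replicate 2 the median of the list was -0.34. In tissue, fewer cells of a type and less RNA per cell cannot be told apart, and the part of these markers in the falls of Aoah, Naip6 and Il1b was not tested.

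Of the other cell types, 0 of 4 neutrophil markers (median -1.01; Ltf -1.62, S100a9 -1.0) and 0 of 10 lymphocyte markers (median -0.36; Ptprc -0.82, Cd3d -0.86) passed. Of 21 endothelial markers 0 passed (median -0.05), with Dnase1l3, a nuclease of sinusoidal cells, at 47.1 to 57.9 CPM in YAP and 69.0 to 82.0 in YAP_Lsd1ko (edgeR adjusted p = 0.0610) and Lyve1, a hyaluronan receptor, at 13.0 to 16.4 and 5.46 to 11.7. Of 21 stellate cell and fibroblast markers, 1 rose and 0 fell (median -0.04): Reln, a matrix protein of stellate cells, at 91.8, 126 and 108 CPM in YAP and 173, 240 and 209 CPM in YAP_Lsd1ko (log2 fold change 0.93; edgeR adjusted p = 0.0442, and 0.0945 without the library labelled YAP_Lsd1ko replicate 2). Over all genes tested, 1.75% rose and 0.367% fell. Endothelial and stellate sums overlapped between the groups. The medians of the lymphocyte and stellate lists were -0.05 and 0.12 without the library labelled YAP_Lsd1ko replicate 2. Of 2 erythroid genes neither passed, and Alas2, the enzyme of red cell haem synthesis, differed by 2.64 (edgeR adjusted p = 0.110) and Sptb, a spectrin, by -0.65.

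Genes of the Hippo pathway itself were lower where they passed. Of 28 components, 0 rose and 3 fell: Yap1, Tead1 and Amot (median -0.25), where 0.367% of all genes fell. Yap1, part of this count and the next, is also the gene of the transgene. Most of its fall lay on the 3 junctions described above. The YAP_Lsd1ko libraries lay wholly below YAP in 9 of the 28 and wholly above in 0, beside 11.5% and 12.5% of all genes. Tead1, a DNA-binding partner of YAP, read 20.5, 16.2 and 15.9 CPM in YAP, 9.72, 6.12 and 8.83 CPM in YAP_Lsd1ko and 3.74 to 5.99 CPM in WT (log2 fold change -1.08; edgeR adjusted p = 0.0487). Amot, a scaffold that binds YAP, read 20.1, 17.6 and 17.1 CPM in YAP and 11.3, 5.29 and 5.60 CPM in YAP_Lsd1ko (-1.30; adjusted p = 0.0474). Neither passed without the library labelled YAP_Lsd1ko replicate 2 (edgeR adjusted p = 0.0891 and 0.0917), although the groups stood apart at both.
Of 25 known target genes of YAP, 0 rose and 1 fell, Tead1, and the median was -0.23, or -0.06 without that library. The YAP_Lsd1ko libraries lay wholly below YAP in 6 of the 25 and wholly above in 0, beside 11.5% and 12.5% of all genes.

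Proliferation and progenitor genes gave 1 call, where 0.367% of all genes fell. Of 41 genes of S phase and mitosis 0 passed in either direction (median -0.29, and 0.01 without the library labelled YAP_Lsd1ko replicate 2). Of the 41, 7 had an unadjusted p under 0.05, all with a negative fold change, as had 751 of all 10897 genes. The YAP_Lsd1ko libraries lay wholly below YAP in 12 of the 41 and wholly above in 0, beside 11.5% and 12.5% of all genes. Their summed level was 1385, 1050 and 1234 CPM in YAP and 1143, 377 and 846 CPM in YAP_Lsd1ko, so replicate 2 was the lowest there as well. Pcna, the sliding clamp of replication, read 90.0, 58.3 and 72.4 CPM in YAP and 48.9, 42.8 and 45.9 CPM in YAP_Lsd1ko (log2 fold change -0.68; edgeR adjusted p = 0.103). Pola1, a subunit of the primase polymerase, lay at 60.7 to 85.4 and 33.2 to 52.1 CPM (-0.73; adjusted p = 0.109). At both genes the groups did not overlap and the test over all genes was not passed.

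In 6 of 18 biliary and progenitor markers the YAP_Lsd1ko libraries lay wholly below YAP, and in 0 wholly above. The shares over all genes were 11.5% and 12.5%. Of the 18, 0 rose and 1 fell in edgeR's test (median -0.62), beside 1.75% and 0.367% of all genes. It was Jag1, the Notch ligand of bile duct formation, at 38.1, 30.8 and 32.2 CPM in YAP, 13.9, 12.9 and 13.0 CPM in YAP_Lsd1ko and 8.24 to 13.3 CPM in WT. Its YAP_Lsd1ko libraries were alike and inside or just above the WT range (log2 fold change -1.34 ± 0.19, SE; edgeR adjusted p = 0.0118, or 0.0225 without the library labelled YAP_Lsd1ko replicate 2). Without that library 2 markers of this list fell. Of 3 fetal liver genes 0 passed (median -0.65): Gpc3, a cell surface proteoglycan of fetal liver, read 421, 235 and 308 CPM in YAP and 160, 8.27 and 104 CPM in YAP_Lsd1ko (-1.82; adjusted p = 0.301), with a spread in YAP_Lsd1ko that reached the WT range of 0.650 to 8.99, and Igf2bp3, an RNA-binding protein, differed by -0.65.

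Partners and relatives of LSD1 gave 1 call, where 1.75% of all genes rose and 0.367% fell. Of 24 tested genes of LSD1 complexes 0 passed (median -0.16), and Hdac1, a deacetylase of the complex, read 14.1, 13.6 and 13.0 CPM in YAP and 6.28, 7.44 and 10.4 CPM in YAP_Lsd1ko (log2 fold change -0.75; edgeR adjusted p = 0.0971). Of 18 listed enzymes and partner subunits of complexes that write or erase methylation at lysine 4 of histone H3, 1 rose and 0 fell (median -0.10). It was Kdm5b, another demethylase of lysine 4, at 31.3, 38.8 and 33.9 CPM in YAP and 52.8, 79.9 and 59.1 CPM in YAP_Lsd1ko (0.88 ± 0.16, SE; edgeR adjusted p = 0.0310, or 0.0456 without the library labelled YAP_Lsd1ko replicate 2), with WT at 62.5 to 70.9. Neuronal targets of REST, genes that LSD1 complexes are known to hold silent outside neurons, stayed at or near the limit of reads: 2 of 31 could be tested and 0 passed, Bex1 (0.54) and Syn1 (-1.68).

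Of 17 polyamine and hypusination genes, 1 rose and 0 fell, beside 1.75% and 0.367% of all genes. The median was 0.08, but -0.03 without the library labelled YAP_Lsd1ko replicate 2 and -0.06 scaled by library size alone. Agmat, which turns agmatine into the polyamine putrescine and urea, read 31.3, 27.7 and 23.7 CPM in YAP, 65.3, 60.2 and 67.3 CPM in YAP_Lsd1ko and 99.2 to 109 CPM in WT. The 3 groups did not overlap (log2 fold change 1.22 ± 0.12, SE; edgeR adjusted p = 0.00715, or 0.00776 without that library).

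**Figure D5:**
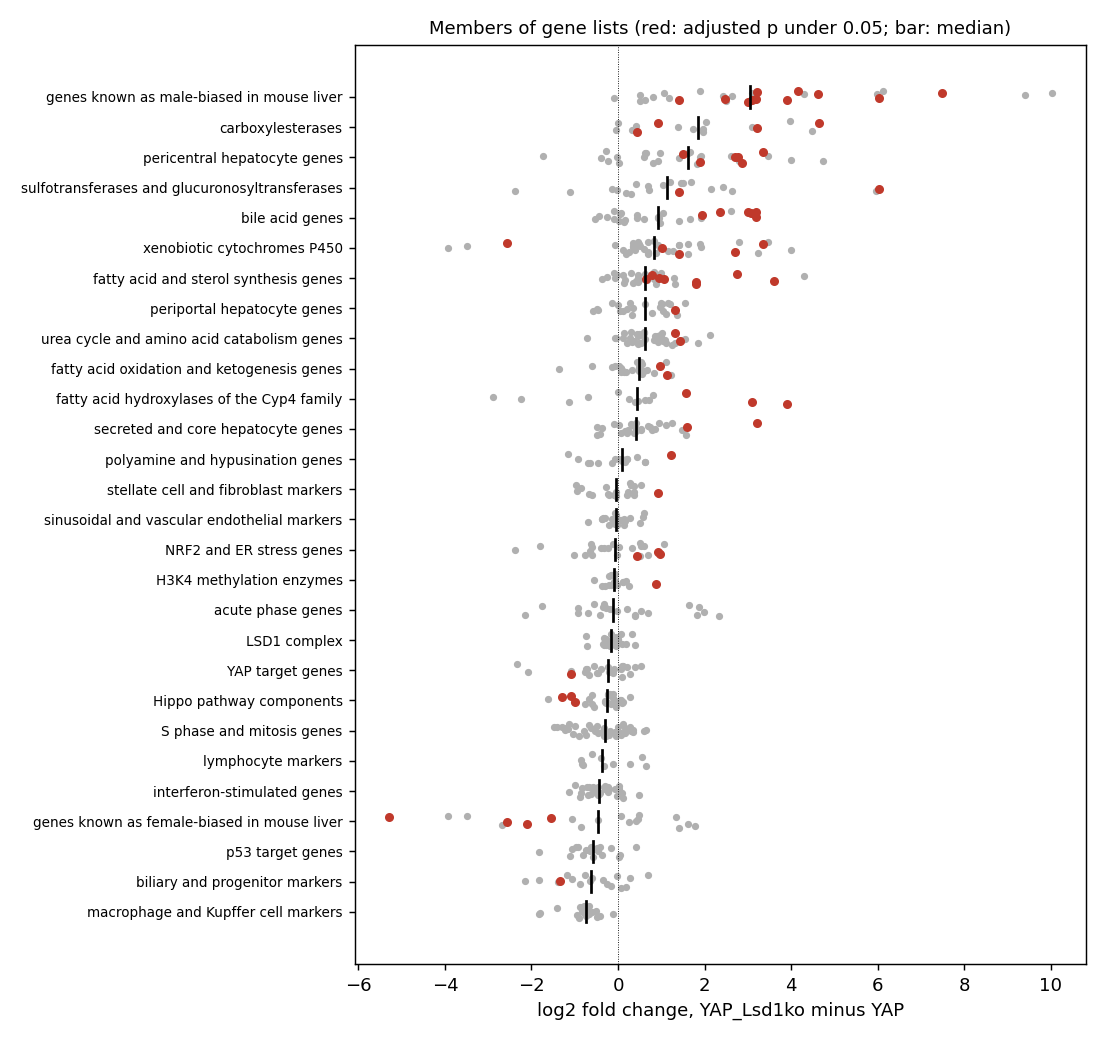
Log2 fold change of YAP_Lsd1ko over YAP (x axis) for the tested members of each gene list with at least 10 tested members, 1 point per gene, red where the edgeR adjusted p is under 0.05, with a bar at the list's median. Male-biased genes have the highest median (3.05) and macrophage markers the lowest (-0.74), and red points lie mostly to the right of 0.

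Rpl11, a protein of the large ribosomal subunit, lost all its unique junction reads in YAP_Lsd1ko. Unique reads of this gene fell only on the junction of its last 2 exons, exons 5 and 6 (chr4:136050017-136050279, minus strand, GRCm38), shown with the last exon in capitals, coding bases only, from GENCODE M21:
Rpl11 exon 5 to 6: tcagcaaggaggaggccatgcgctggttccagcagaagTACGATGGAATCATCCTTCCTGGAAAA
There were 275, 257 and 132 unique reads in YAP, 214, 191 and 266 in WT and 0, 0 and 0 in YAP_Lsd1ko. Over the group the level was at least 211-fold lower, taking 3 reads over the group as the limit that a count of 0 allows (edgeR adjusted p = 0.00463), and this holds for counting error only. The library labelled YAP_Lsd1ko replicate 2 shared the 0 with its fellows, in contrast to its Kdm1a level. Multi-mapped reads at the same junction were 1084, 1114 and 834 in YAP and 28, 19 and 16 in YAP_Lsd1ko. At the next junction (chr4:136050391-136051170) they were 1151, 1175 and 1079 in YAP and 817, 860 and 1162 in YAP_Lsd1ko, so the loss was seen at 1 junction and not along the gene. Copies of ribosomal protein genes elsewhere in the genome share such reads, so the level of Rpl11 mRNA as a whole is uncertain.

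Rpl11 lies on chromosome 4 near Kdm1a. Of 174 tested genes within 10 Mb of Kdm1a, 7 passed (4.02%; 5 higher, 2 lower), among them Rpl11, Nr0b2 and Agmat. The share was 3.08% of 519 genes on the rest of chromosome 4 and 2.09% of the 10723 genes outside the window. The median log2 fold change in the window was -0.08. The neighbourhood of the targeted allele and the loss of LSD1 cannot be told apart in this design.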

How the data were processed

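Total RNA of RIN 8 or more was depleted of ribosomal RNA and made into stranded libraries, per the labels' protocols. Build mm10 and the tools STAR, featureCounts, edgeR, bcl2fastq and FastQC stand in the submitters' processing notes, with no version. The deposited tables hold counts of unique and multi-mapped reads per splice junction, not normalized. Which annotation the authors used the labels do not give.

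Junctions marked as annotated were matched to introns of GENCODE M21 (GRCm38). Of 251612 junctions, 145706 belonged to 1 gene and 1702 to several, which were left out, and 1331 of 21951 protein-coding genes have no intron. The 9 libraries were fitted together in edgeR 4.0.16 (R 4.3.3; filterByExpr, TMM, robust quasi-likelihood, Benjamini-Hochberg adjusted p under 0.05). DESeq2 1.42.0, other scalings and filters, 1 junction per gene, a replicate block and left-out libraries were alternatives. The fit was tested on simulated data with independent libraries, which cannot show how a replicate 3 between the others affects it.

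Genes named are Kdm1a and Yap1, the 15 largest rises and falls among passing genes with groups apart and at least 50 reads on average, the 10 with the smallest p, and up to 4 passing (else 2) members of each of 33 lists. Some are not reported here. Comparison and lists were chosen with earlier results of these data known.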

Additional observations from a re-analysis of the deposited data

Results flagged for a closer look

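The share of junction reads that mapped to several places, which the test of genes does not use, was 24.5%, 59.5% and 48.1% in YAP_Lsd1ko replicates 1 to 3, against 13.1%, 14.4% and 13.8% in YAP, and these 3 values were set apart because each lies above the YAP level. WT libraries stood at 68.6%, 32.2% and 56.7%. Junctions of Mup genes, a family of near-identical copies, made up 34.8%, 58.4% and 54.3% of these reads in YAP_Lsd1ko and 0.846% to 3.67% in YAP. With Mup junctions left out the share was 18%, 39.0% and 30.7% in YAP_Lsd1ko and 13.2% to 14.3% in YAP.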

How the results depend on the processing

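The 231 genes (191 higher, 40 lower) became 146 (113 higher) when scaled by library size only, and the median over all genes was then -0.14. The DESeq2 Wald test gave 712 (531 and 181), the 6 libraries alone 109 (93 and 16) and 1 junction per gene 148 (115 higher). With every replicate 3 left out, edgeR gave 0 (0 and 0) and DESeq2 85 (74 and 11). Leaving out single libraries gave 5 to 844 genes (4 to 653 higher, 1 to 191 lower) and 96 to 4294 junctions. Of higher and lower calls 82.7% were higher, against 74.6% in the DESeq2 Wald test, 77.4% with library size alone and 71.6% without YAP replicate 2.

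Yap1 kept its direction but missed the threshold with the 6 libraries alone (-0.98, adjusted p = 0.0589 in edgeR), with every replicate 3 left out (-0.80 in edgeR and -0.80 in DESeq2), and without WT replicate 3, YAP replicate 1 or 3 or YAP_Lsd1ko replicate 3; over all left-out libraries Yap1 ranged from -1.19 to -0.85. Cyp3a44 turned to 0.28 with multi-mapped reads added, and Bex1 ranged from -0.50 (without YAP_Lsd1ko replicate 1) to 1.05 over left-out libraries. The cause was not tested.

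With a replicate block 46 genes (37 and 9) and 349 junctions passed, and Yap1 was -1.0 (edgeR adjusted p = 0.0630). The labels give no pairing beyond the shared replicate numbers. Correlations of same-numbered YAP and YAP_Lsd1ko deviations were -0.22, -0.28 and 0.17. With replicate 3 between the others in each group, these values cannot decide whether the libraries are paired.

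Several rises stand on few YAP reads, which limits their precision. Among them are Lgr5 (6 reads over the YAP group), Adgrf1 (9), Nr0b2 (12), Nat8f5 (12), Nxpe2 (13), Treh (19) and Rdh16f2 (28).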

Other observations

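Stress and inflammation lists held 3 calls, among them genes of the endoplasmic reticulum. Of 24 genes of the NRF2 and ER stress responses, 3 rose and 0 fell (median log2 fold change -0.06). The shares over all genes were 1.75% and 0.367%. Creld2, a chaperone-like protein of the endoplasmic reticulum, read 23.9, 24.5 and 29.6 CPM in YAP, 44.7, 52.4 and 50.8 CPM in YAP_Lsd1ko and 30.4 to 41.6 CPM in WT, and Dnajb9, a co-chaperone there, read 11.8, 10.1 and 14.7 CPM in YAP, 21.0, 24.6 and 25.6 CPM in YAP_Lsd1ko and 14.6 to 16.2 CPM in WT. At both genes every YAP_Lsd1ko library was above both other groups (edgeR adjusted p = 0.0186 and 0.0222 against YAP). Ces2g, named above, was the remaining one, and 1 of the 3 passed without the library labelled YAP_Lsd1ko replicate 2.

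Of 22 acute phase genes 0 passed (median -0.11). Orm1, an acute phase glycoprotein, read 120, 569 and 415 CPM in YAP and 1141, 2406 and 2035 CPM in YAP_Lsd1ko (log2 fold change 2.34; edgeR adjusted p = 0.0588), and Serpina3k, a protease inhibitor of plasma, differed by 1.86 (adjusted p = 0.0810). Both had groups that did not overlap. Of 30 interferon-stimulated genes 0 passed (median -0.44, and -0.12 without the library labelled YAP_Lsd1ko replicate 2), with Irf9 at -0.47 and Ifit2 at -1.0. Of 19 target genes of p53 0 passed (median -0.59, and -0.29 without that library), with Btg2 at -1.12 and Cdkn1a, an inhibitor of the cell cycle, at 3.68, 17.1 and 10.9 CPM in YAP and 4.74, 0.496 and 3.45 CPM in YAP_Lsd1ko.

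In RefSeq promoters, windows of equal length around each start (GRCm38.p6), the TEAD motif GGAATG, on either strand, was in 15.5% of the 181 promoters of higher genes and 12.8% of the 47 of lower genes, against 12.2% of the promoters of all genes tested. The STAT motif TTCNNNGAA was in 7.18% and 6.38%, against 6.89%. The HNF4 motif CAAAGTCCA was in 2 of the 181 (1.1%) and 1 of the 47 (2.13%), against 0.537%. These shares were not tested.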
